A study of Homo sapiens with 4 samples.

Results

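Tubulin and actin mRNAs encode the subunits of microtubules and actin filaments, and 8 of their genes were examined for crosslinking to PR100-FLAG. The α-tubulin genes were TUBA1A, TUBA1B and TUBA1C, the β-tubulin genes were TUBB, TUBB2A and TUBB4B, and the cytoplasmic actin genes were ACTB and ACTG1. These 8 of 62700 annotated genes were taken by name, and the counts on their own strand were used. The measurements came from iiCLIP, a method in which protein and RNA are joined by UV light, the protein is purified and the position where reverse transcription stopped is read as the crosslinked nucleotide. All 4 libraries were made from HEK293T cells, a human embryonic kidney line, that were given doxycycline at 150 ng/ml for 24 h to express FLAG-tagged PR100, a proline-arginine dipeptide repeat protein, and were irradiated with 160 mJ/cm2 at 254 nm. SDS-PAGE was used to purify replicates 1 to 3 and beads to purify replicate 4, and the random barcode that marks single cDNAs was 5 nt long in replicate 3 and 7 nt in the others. All libraries belong to 1 condition, and the control and GA100 samples are not analysed here. No RNA level was measured in these libraries, so a count of events cannot be separated into binding and abundance of the mRNA. The labels name no separate cultures, so the spread between libraries may be technical.

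An event is 1 unique cDNA that ends at a position. The libraries held 334057, 604816, 125694 and 179636 events in replicates 1 to 4, which together gave 1244203 events at 784115 positions. CPM is the share of a library that a gene holds, scaled so that all events of the library sum to 1e6.

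α-Tubulin and β-tubulin pair into the dimers from which microtubules grow, and each ends in a flexible acidic tail that projects from the microtubule surface and carries chemical marks such as glutamate chains. β-Actin and γ-actin are the actins of nonmuscle cells and have no such tail. The codons for glutamate and aspartate begin with GA, so that the mRNA of an acidic tail is rich in purines and in pentamers of the form GANGA, which were searched on the gene strand with N as adenine, guanine or cytosine.

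The last 20 codons before the stop codon hold these tails, and they are shown for the β-tubulins and, for comparison, the actins, with every GANGA pentamer in capitals and overlapping ones joined. The sequences were read from GRCh38, 5′ to 3′ on the gene strand.
TUBB: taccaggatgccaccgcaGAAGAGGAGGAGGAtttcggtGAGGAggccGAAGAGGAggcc
TUBB2A: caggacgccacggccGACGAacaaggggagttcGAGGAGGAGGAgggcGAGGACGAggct
TUBB4B: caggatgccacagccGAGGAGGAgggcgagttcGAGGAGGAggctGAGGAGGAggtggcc
ACTB: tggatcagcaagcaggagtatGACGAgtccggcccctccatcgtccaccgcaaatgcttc
ACTG1: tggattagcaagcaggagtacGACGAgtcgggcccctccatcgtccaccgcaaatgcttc

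The tails lie in the last exon of each gene, for TUBB at chr6:30724335-30724394 on the plus strand, for TUBB2A at chr6:3153866-3153925 on the minus strand and for TUBB4B at chr9:137243494-137243553 on the plus strand. The matching codons of ACTB are at chr7:5527751-5527810 and those of ACTG1 at chr17:81510693-81510752, both on the minus strand. Each tubulin tail held 10 or 11 acidic codons of 20 and each actin end held 3. The 6 tubulin tails held 30 of the 57 GANGA motifs of their transcripts, or 52.6%, in 3.05% of the length. TUBB had 7 of its 11 motifs in the tail, whereas the ends of ACTB and ACTG1 held 1 motif each.

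The 8 genes gathered 568 events, 0.0457% of all events. Their sum was 365, 430 and 461 CPM in the 3 SDS-PAGE libraries and 713 CPM in the beads library, with a mean of 492 ± 152 CPM (SD, n = 4). The actins held 338 of these events, the β-tubulins 171 and the α-tubulins 59. The actins stood at 213, 253 and 215 CPM in the SDS-PAGE libraries and at 484 CPM on beads, while the 6 tubulins together stood at 153, 177 and 247 CPM and at 228 CPM on beads. The beads library was therefore above every SDS-PAGE library for the actins and inside their range for the tubulins. With 1 beads library the difference was not tested.

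ACTB, which encodes β-actin, had 40, 68, 13 and 49 events in replicates 1 to 4, or 152 ± 80.7 CPM (SD, n = 4). ACTG1, which encodes γ-actin, had 31, 85, 14 and 38 events, or 139 ± 52.2 CPM. Both actins were detected in every library. TUBB, the main β-tubulin gene of dividing cells, had 19, 53, 17 and 15 events, or 90.8 ± 32.6 CPM. TUBB4B, a broadly expressed β-tubulin gene, had 17, 22, 7 and 17 events, or 59.4 ± 24.9 CPM. These β-tubulin genes were likewise detected in every library, in contrast to TUBB2A. TUBB2A, a β-tubulin gene best known from neurons, had 1, 3, 0 and 0 events.

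TUBA1B, a broadly expressed α-tubulin gene, had 13, 14, 7 and 3 events, or 33.6 ± 17.4 CPM (SD, n = 4). TUBA1C, another α-tubulin gene, had 1, 14, 0 and 5 events. TUBA1A, the α-tubulin gene of developing neurons, had 0, 1, 0 and 1 events. TUBA1B was the only α-tubulin gene of the 3 with events in every library. Of the 20 events of TUBA1C, 12 lay in an annotated exon and 7 in an exon of its canonical transcript.

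In order of the mean CPM the genes ran ACTB, ACTG1, TUBB, TUBB4B, TUBA1B, TUBA1C, TUBB2A and TUBA1A. Each neighbour in this order was compared with the next by the log2 ratio in each of the 4 libraries and an exact two-sided permutation test that flips its signs, and none of the 7 pairs differed beyond the spread, with p between 0.25 and 1. The smallest p that this test can give with 4 libraries is 0.13, so it cannot pass 0.05. ACTB and ACTG1 differed by 0.08 ± 0.34 on the log2 scale (SD, n = 4), with ACTB higher in 2 of 4 libraries (exact p = 0.75).

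**Figure D1:**
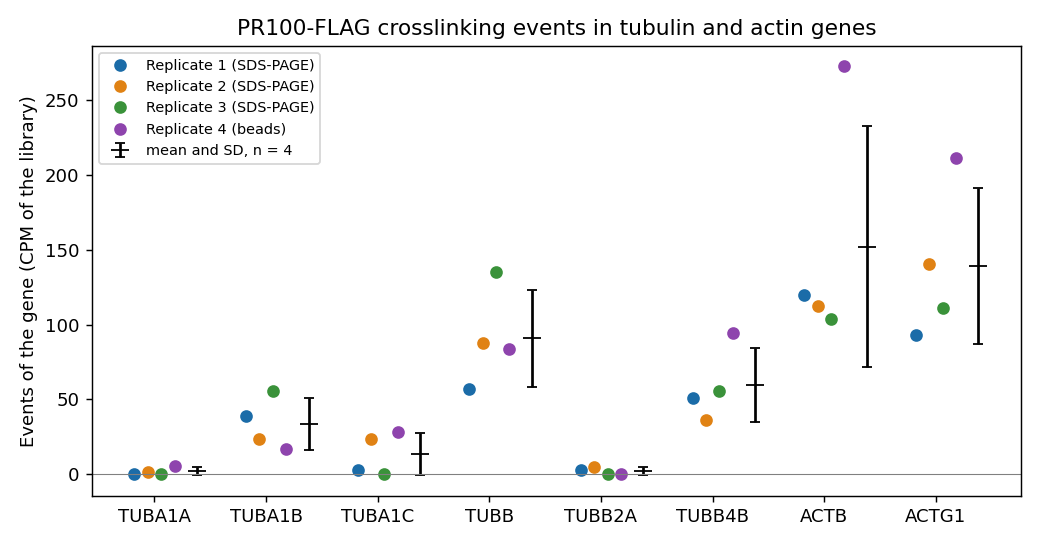
Events of each gene in CPM of the library (vertical axis) for the 8 genes (horizontal axis), with 1 point for each library and the mean with SD (n = 4) in black. ACTB reached 273 CPM in the beads library against 103 to 120 CPM in the SDS-PAGE libraries, and TUBA1A and TUBB2A lay near 0 in all 4.

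None of the 8 genes reached 200 pooled events, a level that the study required of the genes it listed beside a limit on events in control samples, which is not applied here. The level was reached by 1.22% of all annotated genes and by 3.51% of protein-coding genes. ACTB, with 170 events, ranked 1003 of 20046 protein-coding genes by events in the gene, and ACTG1, with 168, ranked 1029. Intronic events enter these counts, so gene length does too.

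Per length of spliced transcript the order among all genes was different. ACTB had 82.8 exonic events per kb, which ranked 68 of 19701 canonical protein-coding transcripts, and ACTG1 had 78.7 per kb and ranked 78. TUBB4B followed with 38.4 per kb at rank 273, TUBB with 37.8 per kb at rank 287 and TUBA1B with 20.3 per kb at rank 870. The median transcript had 1.33 events per kb, the 95th percentile was 18.8 and the 99th was 46.4, so both actins lay above the 99th percentile and the other 3 above the 95th. TUBA1C with 2.48 per kb, TUBB2A with 1.86 per kb and TUBA1A with 0.598 per kb had 40.8 to 59.9% of transcripts below them. Among other cytoskeletal mRNAs on the same scale, NEFM, which encodes a neurofilament subunit, had 430 events per kb and ranked 3, while NEFL, another neurofilament gene, had 44.9 and VIM, which encodes vimentin, had 43.2. No event was counted in the exons of NEFH.

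At least 50 exonic events were needed for the tests within a transcript, and TUBB, TUBB4B, ACTB and ACTG1 passed with 95, 60, 150 and 151. This level was passed by 8.28% of canonical protein-coding transcripts. TUBA1B with 33 exonic events, TUBA1C with 7, TUBB2A with 3 and TUBA1A with 1 are described by their counts alone.

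Exons were denser in events than introns in the 4 genes tested. ACTB had 36, 60, 9 and 45 exonic events against 0, 3, 1 and 1 intronic events in replicates 1 to 4, or 82.8 against 3.05 events per kb. The mean log2 ratio of the densities was 4.33 ± 1.48 in ACTB, 3.12 ± 1.62 in TUBB, 3.06 ± 0.58 in ACTG1 and 3.01 ± 1.02 in TUBB4B (SD, n = 4). In each of the 4 genes the exons were denser in 4 of 4 libraries (exact sign-flip permutation p = 0.13). Exons were denser in all libraries in 44.6% of the 4701 protein-coding genes with at least 50 events, and the median pooled log2 ratio was 3.06. The quartiles of that pooled ratio were 2.21 and 3.85. The 4 means over libraries are a different measure, so they are not placed against this median. Pooled counts gave plain density ratios of exons to introns, not in log2, of 27.19 in ACTB, 10.98 in TUBB4B, 10.73 in TUBB and 8.95 in ACTG1.

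Within the exons, the coding sequence of the actins held most events. ACTG1 had 23, 60, 13 and 31 events in the coding sequence and 5, 7, 0 and 1 in the 3′ UTR in replicates 1 to 4, or 113 against 18.1 events per kb. The log2 ratio of these densities, with 0.5 events added to each count, was 2.91 ± 1.23 (SD, n = 4), above 0 in 4 of 4 libraries (exact sign-flip permutation p = 0.13). ACTG1 was the only one of the 4 genes with a denser coding sequence in every library, a pattern seen in 43.1% of 1596 genes. ACTB had 23, 46, 9 and 39 coding events against 13, 5, 0 and 4 in the 3′ UTR, or 104 against 36.7 per kb. Its log2 ratio was 1.90 ± 1.45, above 0 in 3 of 4 libraries (exact p = 0.25). In replicate 1 the ACTB densities were nearly equal, and 6 of the 13 UTR events of that library were at a single position.

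The β-tubulin mRNAs showed less of a difference between coding sequence and 3′ UTR than the actin mRNAs in these values. TUBB had 8, 33, 8 and 11 coding events against 8, 12, 4 and 2 in the 3′ UTR, with a log2 ratio of 0.75 ± 0.92 (SD, n = 4; 3 of 4 libraries above 0, exact p = 0.25). TUBB4B had 14, 17, 7 and 14 coding events against 1, 3, 0 and 1 in its 3′ UTR of 151 nt, with a log2 ratio of 0.05 ± 0.65 (exact p = 0.75). With so few 3′ UTR events this value depended on the 0.5 events added, and with 0.1 added it was 0.85. At positions whose following 30 bases occur nowhere else, the ratios were 0.95 in TUBB, 0.21 in TUBB4B, 1.47 in ACTB and 2.38 in ACTG1. Over the 1596 genes the median log2 ratio of pooled counts was 1.43, with quartiles of 0.73 and 2.36. The means over libraries given here are a different measure from that median. Pooled counts gave plain density ratios, not in log2, of 6.23 in ACTG1, 2.83 in ACTB, 1.77 in TUBB and 1.17 in TUBB4B. The difference between the tubulins and the actins was not tested. Among the genes with too few events to test, TUBA1B had 20 coding and 12 3′ UTR events, and 7 of the latter were at 1 position in replicate 3.

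The 5′ UTRs were short, and their densities were high with wide intervals. ACTG1 had 11 events in 72 nt, or 153 per kb with an exact Poisson 95% interval of 76.3 to 273, and ACTB had 11 events in 84 nt, or 131 per kb (65.4 to 234). In both genes the events came mainly from replicate 2, which gave 10 of 11 in ACTG1 and 9 of 11 in ACTB. TUBB had 9 events in 155 nt, or 58.1 per kb (26.6 to 110), and 7 of the 9 were from replicate 2. Without replicate 2 the values were 13.9 per kb in ACTG1, 23.8 in ACTB and 12.9 in TUBB. These intervals cover counting error only.

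**Figure D2:**
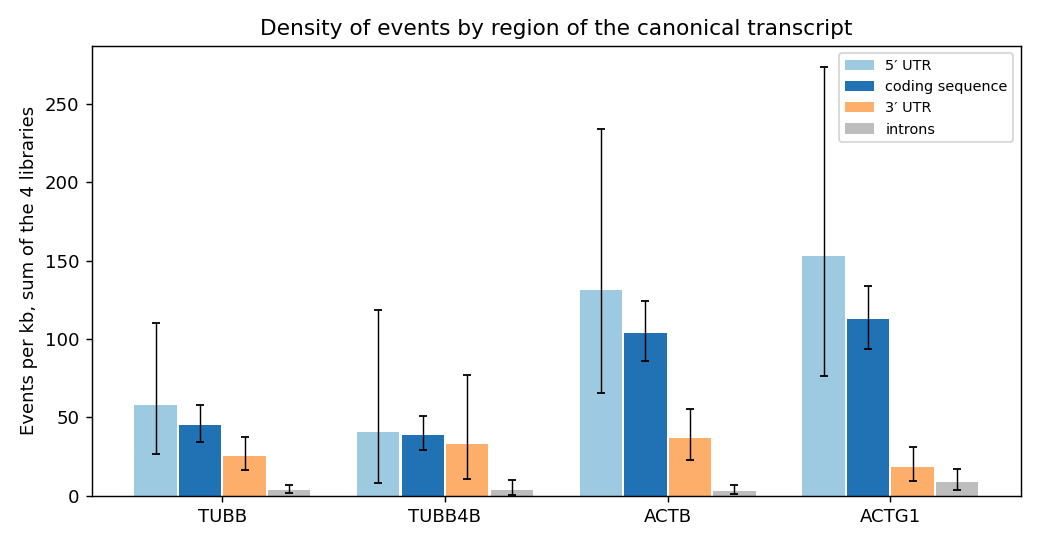
Events per kb (vertical axis) in the 5′ UTR, coding sequence, 3′ UTR and introns of the canonical transcripts of TUBB, TUBB4B, ACTB and ACTG1, as the sum of 4 libraries with exact Poisson 95% intervals. Introns are lowest in each gene, and the coding sequence stands above the 3′ UTR without overlap of the intervals in ACTB and ACTG1 but not in TUBB and TUBB4B.

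By exon, ACTB and ACTG1 share the same layout, with coding exons of equal length, and their coding sequences of 1128 nt were identical at 91.2% of positions. Exon 4 of ACTB (chr7:5528281-5528719) was its densest coding exon with 63 events or 144 per kb, and came before exon 2 with 85.3 per kb and exon 3 with 83.3 per kb. In ACTG1, exon 3 had 34 events or 142 per kb, exon 5 had 126 per kb and exon 4 had 121 per kb. The last exons, which hold the 3′ UTR, were the least dense, with 47.0 per kb in ACTB and 27.8 per kb in ACTG1. In the 4 exons of TUBB and TUBB4B the third exon was the least dense of each gene, at 18.0 per kb with 2 events in both, and exon 2 was the densest at 64.2 per kb with 7 events in both.

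The codons of the acidic tails did not hold more events in all libraries. The 6 tubulin tails together held 11 of the 141 coding events, or 7.80% (exact Clopper-Pearson 95% interval 3.96 to 13.5), in 4.46% of the coding length. At the density of the rest of the coding sequence 6.10 events would lie there. All 11 events came from replicate 2, and replicates 1, 3 and 4 had 0 in every tubulin tail. TUBB4B had 5 of them, all at 1 position, TUBA1B had 3, TUBB 2 and TUBA1C 1, while TUBA1A and TUBB2A had 0. The 30 nt upstream of the tails added 2 events, both in TUBA1B and both in replicate 2.

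The 5 events of TUBB4B lay at chr9:137243497 in codon 427, near the start of the tail, and the bases around it are shown with the crosslinked nucleotide in capitals.
TUBB4B codon 427: accagGatgccacagccgaggaggagggcg
The first GAGGA of the tail begins within 30 nt downstream of this nucleotide.

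In TUBB the log2 ratio of the tail to the rest of the coding sequence was 0.32 ± 0.35 (SD, n = 4; exact sign-flip permutation p = 0.25), and in TUBB4B it was 0.71 ± 1.74 (exact p = 0.63). With 0 tail events in 3 of 4 libraries, these means rest on the 0.5 events added: with 0.1 events added they were -1.43 and -1.01. The summed counts gave 33.3 events per kb in the TUBB tail against 45.5 in the rest, and 83.3 against 36.8 in TUBB4B. The matching 20 codons of ACTB held 0 of 117 coding events, which allows up to 2.56% of them (3 counts), and those of ACTG1 held 3, 4, 0 and 0 events, 7 of 127. ACTB had 8 events in the 30 nt just before its last 20 codons, 7 of them in replicate 2. TUBB4B and ACTG1 were denser at their end than in the rest when libraries were summed, and TUBB and ACTB were not. The end was denser in 27.1% of 1043 protein-coding genes with at least 50 coding events, with a median pooled log2 ratio of -0.38.

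**Figure D3:**
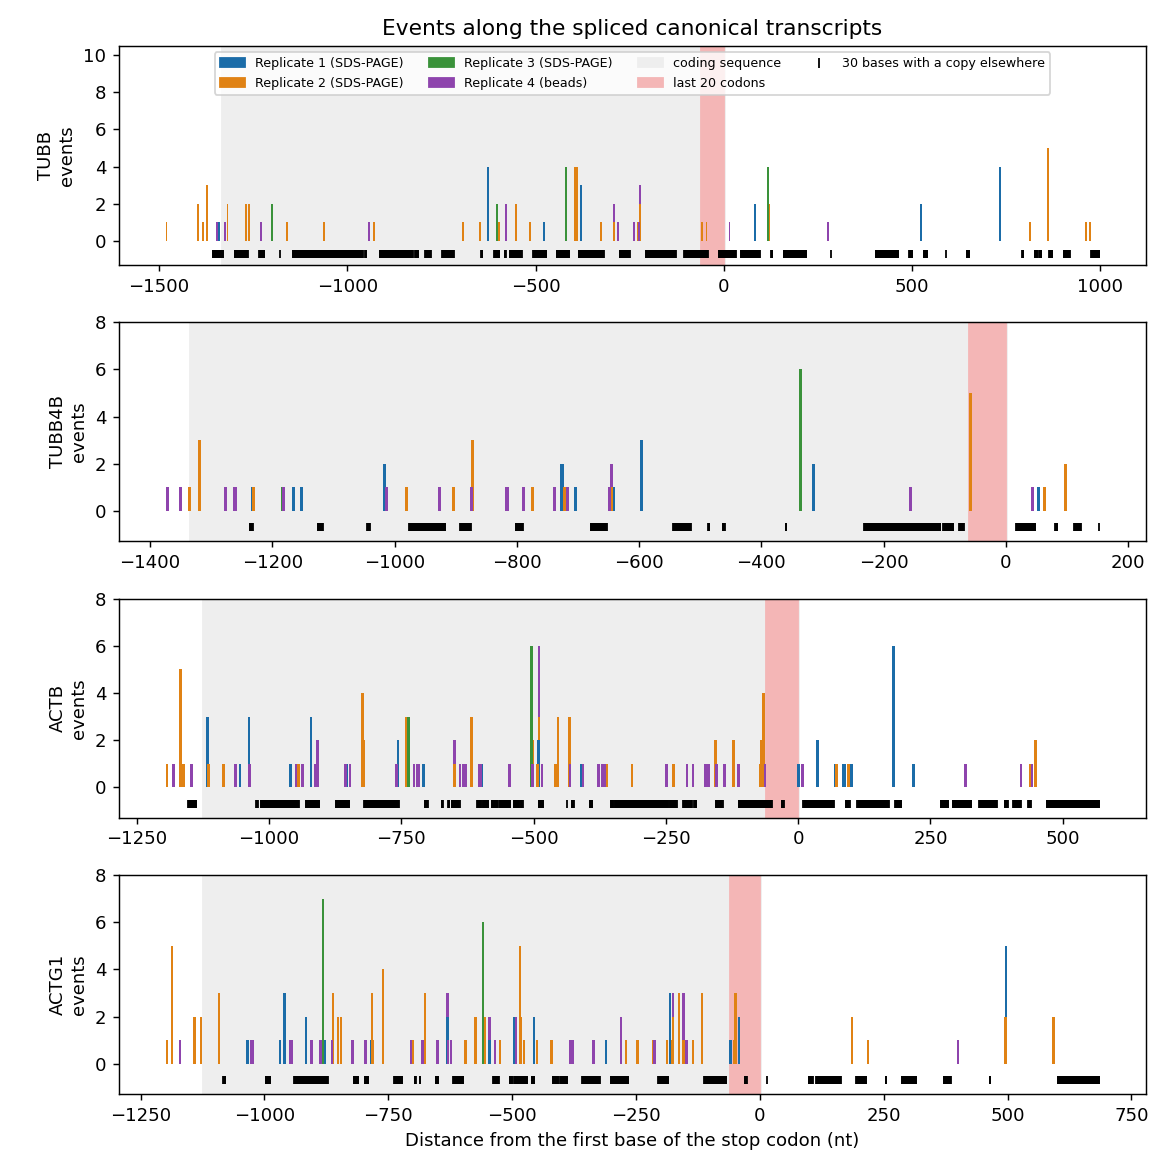
Events at each position (vertical axis) along the spliced transcripts of TUBB, TUBB4B, ACTB and ACTG1, by distance in nt from the first base of the stop codon (horizontal axis), with stacked bars coloured by library, the coding sequence in grey, the last 20 codons in red and black ticks where the 30 bases that follow occur elsewhere in the genome. Tail events of TUBB and TUBB4B are from replicate 2 alone, and replicate 3 appears as a few tall bars.

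GANGA motifs were counted near an event when one began from 5 nt upstream to 30 nt downstream of it. The study found GAAGA enriched in its own PR100 data with this window. A share of events above that of positions is therefore not independent support for the motif. In ACTG1, 14 of 28, 32 of 77, 13 of 13 and 7 of 33 exonic events were near a motif in replicates 1 to 4, or 50, 41.6, 100 and 21.2%, while 23.2% of its exonic positions were. The 3 SDS-PAGE libraries lay above the share of positions and the beads library just below it. The mean difference was 29.95 ± 33.5 percentage points (SD, n = 4; exact sign-flip permutation p = 0.25), and without replicate 3, whose 13 exonic events lay at few positions, it was 14.3 points. For GAAGA alone, an alternative setting outside the 27 tests, the difference was 27.4 ± 38.7 points (SD, n = 4). The share of ACTG1 was then above that of positions in 4 of 4 libraries (exact p = 0.13). How many of all genes show this for GAAGA alone was not counted. The same setting gave -3.09 points in TUBB and -2.95 points in ACTB, and TUBB4B has no GAAGA. ACTG1 has 14 GANGA motifs in its transcript, 9 of them GAAGA.

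The other 3 genes did not show this pattern. ACTB, with 10 motifs, had 13.9, 16.7, 0 and 24.4% of its exonic events near one, against 19.9% of positions, and was above it in 1 of 4 libraries (exact p = 0.38). TUBB4B, with 9 motifs, had 0, 42.9, 0 and 11.8% against 11.3% (exact p = 0.88), and replicate 2 alone stood well above. TUBB had 0 of 17, 3 of 52, 0 of 12 and 0 of 14 events near a motif, against 8.47% of positions, and was below that share in 4 of 4 libraries, with a mean difference of -7.03 points (exact p = 0.13). The libraries with 0 had 12 to 17 events each, too few to tell 0 from a share of 8.47%. How many of all genes lie below in 4 of 4 libraries was not counted. None of the 4 genes was above the share of positions in all 4 libraries, a pattern found in 14.2% of 1631 genes, where the median pooled difference was 6.84 points. Pooled, ACTG1 stood at 43.7% near a motif, TUBB4B at 18.3%, ACTB at 17.3% and TUBB at 3.16%.

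The 500 exonic events of the 8 genes lay at 301 positions, of which 235 were in coding sequence. Only 10 positions had an event in 2 or more libraries, 1 of them in 3 libraries and 0 in all 4. All 10 were in coding sequence, 6 in the actins and 4 in tubulins, and replicate 3 had an event at 0 of them. These positions are shown because they were seen more than 1 time, with the crosslinked nucleotide in capitals, 5 nt before it and up to 24 nt after it within the exon.
TUBA1B codon 172: ccattTacccagcaccccaggtttccacag
TUBB codon 348: ccaacAatgtcaagacagccgtctgtgaca
TUBB codon 370: ggcaaTagcacagccatccaggagctcttc
TUBB4B codon 231: tgtctGctaccatgagtggggtcaccacct
ACTB codon 159: ggggtCacccacactgtgcccatctacgag
ACTB codon 212: gacatTaaggagaagctgtgctacgtcgcc
ACTG1 codon 165: cccatCtacgagggctacgccctcccccac
ACTG1 codon 194: tcctcActgagcgaggctacagcttcacca
ACTG1 codon 317: gagatCaccgccctggcgcccagcaccatg
ACTG1 codon 324: agcacCatgaagatcaag

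ACTB codon 212, at chr7:5528447, was the position found in 3 libraries, with 2, 1, 0 and 3 events in replicates 1 to 4. TUBA1B codon 172, at chr12:49128800, had 3, 2, 0 and 0 events. The other 8 had 2 or 3 events each. A GANGA motif was near 2 of the 10, both in exon 5 of ACTG1, at codons 317 (chr17:81510960) and 324 (chr17:81510939). At 8 of the 10 the 30 bases that follow occur nowhere else in the genome, and ACTB codons 159 and 212 were the exceptions.

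The crosslinked nucleotide itself was not biased in a way shared by the libraries. Thymidine, which stands for uridine in the RNA, made up 40, 24.6, 8.33 and 23.5% of exonic events in replicates 1 to 4 against 23.5% expected from the exons, and cytidine 16.2, 21.6, 56.3 and 35.7% against 28.7%. No base was above or below its expected share in all 4 libraries, with exact p between 0.75 and 1 over the 4 bases. Replicate 3 stood apart in this and other measures: its 48 exonic events lay at 11 positions, 4.36 events per position, while replicates 1, 2 and 4 had 1.81, 1.72 and 1.06. Over all its positions replicate 3 had 2.16 events per position, against 1.15 to 1.67 in the other libraries. Its random barcode was the shortest, and the part of the barcode in this was not tested.

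Significant clusters, which the authors called on the summed libraries, were present in 4 of the 8 genes. ACTB and ACTG1 held 4 each, TUBB 2 and TUBA1B 1, which gave 11 clusters of 11 to 20 events. TUBB4B held 0 although it passed 50 exonic events, and 63.9% of the 1631 genes at that level held a cluster in an exon. ACTB, ACTG1 and TUBB are at that level, whereas TUBA1B, with 33 exonic events, lies below it. How many of all genes hold a cluster was not counted, so the 4 of 8 stands beside no matching share. All 11 clusters had events from at least 2 libraries, 10 from at least 3 and 2 from all 4. In lists called on single libraries, 0, 3, 0 and 0 clusters lay in these genes for replicates 1 to 4.

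The clusters with events in all 4 libraries were both in actin genes. The ACTB cluster at chr7:5528447-5528461 in exon 4 held 4, 4, 6 and 4 events and covered codons 208 to 212, and its 6 events of replicate 3 were at a single position. The ACTG1 cluster in exon 3 held 1, 7, 7 and 2 events, and its 7 events of replicate 3 likewise lay at a single position. Both overlapped a cluster of the other actin when the coding sequences were aligned: ACTG1 had one at codons 211 to 215 with 2, 7, 0 and 2 events, and ACTB had one in exon 3 with 5, 8, 0 and 7. The latter was 139 nt long, from codon 56 to codon 102, and the ACTG1 cluster it overlapped was 42 nt long. How often clusters of these lengths overlap by chance was not computed. At all 4 positions of the ACTG1 cluster at codons 211 to 215, the 30 bases that follow also occur elsewhere in the genome, though the following 50 do not. The same held for ACTB codon 212, with 6 of its cluster's 18 events, and for the ACTG1 position with 7 events of replicate 3. The part of copies in the overlap was not tested. The clusters of codons 208 to 215 are shown for both mRNAs because they overlap, each with up to 5 nt before and 30 nt after.
ACTB codons 208 to 212: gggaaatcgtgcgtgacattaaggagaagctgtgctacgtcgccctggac
ACTG1 codons 211 to 215: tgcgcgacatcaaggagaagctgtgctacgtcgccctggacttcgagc

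The region around codon 212 holds no GANGA motif in either mRNA. Of 76 coding positions with an event in ACTB and 72 in ACTG1, 9 were the same aligned position, or 11.8% of the former and 12.5% of the latter. The number that would be shared by chance was not computed, so these shares are a description. The other clusters of ACTB lay in exon 2 (chr7:5529569-5529648, codons 4 to 30) with 11 events and over the 5′ UTR and its upstream flank with 16 events. The other clusters of ACTG1 covered codons 184 to 190 with 12 events, 6 of them from replicate 3, and codons 313 to 326 with 15 events from replicates 1, 2 and 4. In TUBB, 15 events in 3 libraries formed a cluster in exon 4 at chr6:30723976-30724015, and 11 events formed one over the start of the coding sequence at chr6:30720442-30720521. The TUBA1B cluster reached from the 3′ UTR into the last codons of the tail and took 7 of its 11 events from replicate 3.

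Tubulin and actin genes have close relatives and many processed pseudogenes, and only reads that mapped to a single place were kept. The coding sequences of TUBA1A and TUBA1B were identical at 97.2% of 1356 positions, and those of TUBB2A and TUBB4B at 87.2% of 1338. A position was said to have a copy when the 30 bases that follow it occur at least at 1 other place in the genome. This held for 68.3% of exonic positions of TUBA1B, 66.1% of TUBB2A, 59.99% of TUBA1A, 50.2% of ACTB, 43.0% of TUBB, 41.8% of TUBA1C, 30.7% of ACTG1 and 24.3% of TUBB4B. The copies of TUBA1A lay most often in TUBA1B and TUBA1C, those of TUBB2A in TUBB2B and those of TUBB in the pseudogene TUBBP1.

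Fewer events per kb lay at positions with a copy. Over the coding sequences of the 8 genes, 281 events lay at 4259 positions without a copy, or 66.0 per kb, and 104 at 6070 positions with one, or 17.1 per kb. The density was lower at copies in each library, with 11.7 against 3.62 per kb in replicate 1, 32.9 against 6.10 in replicate 2, 5.64 against 2.14 in replicate 3 and 15.7 against 5.27 in replicate 4. With copies of 50 bases, 6 events lay at 4206 coding positions with a copy, or 1.43 per kb, against 61.9 per kb at the rest. TUBA1B showed the largest ratio among the genes with at least 20 exonic events, with 54.3 exonic events per kb without a copy and 4.50 with one. The part of unique mapping in this was not tested.

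Counted over the positions without a copy alone, exonic density was 113 per kb in ACTB, 88.0 in ACTG1, 54.3 in TUBA1B, 48.8 in TUBB and 47.3 in TUBB4B. TUBA1B stood in place 3 in this order and in place 5 over all exonic positions, but 7 of its 28 events without a copy were at 1 position in replicate 3. Without replicate 3 it was in place 5 here too, with 40.7 per kb against 44.6 in TUBB and 41.4 in TUBB4B. The remaining 3 stayed low: TUBB2A had 5.47 per kb with 3 events and TUBA1C 4.26 per kb with 7. TUBA1A had 0 events at 669 such positions, for which a count of 0, taken to allow up to 3 counts, allows up to 4.48 per kb. In the last 20 codons of the 8 genes, the actin ends included, 36.5% of positions had a 30-base copy, against 58.8% of all coding positions. By gene, the tubulin tails ranged from 0% in TUBB4B to 55% in TUBA1A and TUBA1B.

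**Figure D4:**
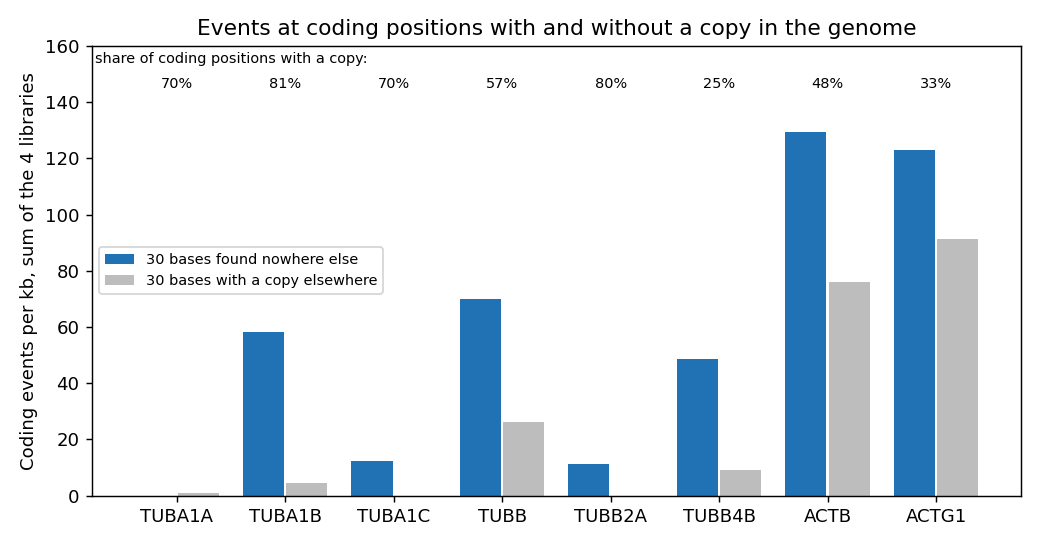
Coding events per kb (vertical axis), as the sum of 4 libraries, at positions whose following 30 bases occur nowhere else (blue) or also elsewhere in the genome (grey) for the 8 genes (horizontal axis), with the share of coding positions that have a copy printed above. Blue exceeds grey in 7 of 8 genes, and TUBA1A has 1 event in all, at a position with a copy.

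Of 83 annotated tubulin and actin pseudogenes 58 had 0 events, or 69.9%, beside 53.3% of all annotated genes, and the largest count was 19 in ACTG1P17. The highest count among the 15 other tubulin genes was 56 in TUBB6, and among the 7 other actin and actin-related genes it was 79 in ACTR3, a subunit of the complex that branches actin filaments. In both groups 0 genes reached 200 events, the level reached by 3.51% of protein-coding genes, so that a count of 0 is near that share.

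Genes that act on tubulin and actin are given for comparison from lists of known function, as counts in the gene body. Of 19 genes for folding, 1 reached 200 events, TBCD, a tubulin cofactor, with 203, and CCT3 and CCT7, subunits of the chaperonin that folds actin and tubulin, followed with 165 and 119. Per exonic kb CCT3 had 74.9 and CCT7 50.9, while TBCD had 6.01. Of 11 genes for tubulin autoregulation and tail modification, SCAPER with 243 and TTLL5, which adds glutamate to tubulin tails, with 206 reached 200. Of 11 genes for microtubule proteins 3 did, the dynein heavy chain gene DYNC1H1 with 391, CKAP5 with 330 and MAP4 with 266. Of 15 genes for actin-associated proteins 4 did, the myosin genes MYH10 with 306 and MYH9 with 205, the filamin gene FLNA with 262 and the actinin gene ACTN4 with 250. These shares stand beside the 3.51% of protein-coding genes at that level, and gene length enters into each count.

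Across the 4 libraries the summed CPM of the 8 genes was most like that of MAPK8IP3, SNHG29 and CAPN15 among 766 genes with at least 200 events. The root mean square difference of the centred log2 CPM was 0.03 for MAPK8IP3 and SNHG29 and 0.04 for CAPN15. With 4 points per gene this is a description of the libraries.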

How the data were processed

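Per the labels and the study's methods, the authors demultiplexed the reads, collapsed duplicates by the random barcode, mapped with STAR to GRCh38 with Gencode 27 and 2 mismatches allowed, discarded reads with several mapping places and assigned each cDNA to the base just upstream of it. The version of STAR is not given in the sources used here. The deposited values are raw cDNA counts for each stranded position, and the deposited clusters were called by the authors with iCount, for which the false discovery rate was set to 0.05, and carry summed counts.

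Positions were placed on GENCODE 44 with Python 3.11.15, numpy 2.4.6, scipy 1.17.1 and pysam 0.24.0, and figures were drawn with matplotlib 3.10.9. CPM divides by all events of a library. Regions are those of the canonical transcript, the tail is the last 20 codons, and 0.5 events were added in ratios. A 30-base or 50-base copy is an exact match on either strand of the genome, outside the gene itself and with alternate and fix sequences left out. Tests were exact two-sided sign-flip permutations over the 4 libraries, unadjusted, 27 in all: within transcripts in genes with at least 50 exonic events, between neighbours in the order of all 8 genes and for the 4 bases over the 8 genes summed. Scripts were tested on simulated data. Intervals and limits for counts cover counting error only, and depth ranged from 125694 to 604816 events. Alternatives were each library left out, positions counted 1 time, copies removed, other amounts added, other transcripts, tail lengths and motif windows, and other thresholds.

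The members, the gene lists and the tests were chosen with earlier results of these data known. Genes named outside the 8 had at least 200 events or were among the 3 highest of their list, a neurofilament and vimentin group was given for comparison, and 3 genes were named for the most similar pattern. Some sequences are not reported here.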

Additional observations from a re-analysis of the deposited data

Results flagged for a closer look

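ACTB stood at 273 CPM in replicate 4, the beads library, and at 120, 112 and 103 CPM in replicates 1 to 3, a gap that exceeded Dixon's 95% limit for 4 values. The share of TUBB exonic events near a GANGA motif was 5.77% in replicate 2 and 0% in the other 3 libraries, and was marked by the same limit. The latter value rests on 3 of 52 events, and the other libraries had 12 to 17 exonic events of TUBB each. With 0% in those libraries, any value above 0 in replicate 2 would have been marked, whatever its size. Chance alone marks about 1 in 20 groups, and the number of groups screened is not given here.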

How the results depend on the processing

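The number of genes with a denser coding sequence in every library, 1 of 4, was 1 to 3 when a library was left out, rising to 3 without replicate 1 and 2 without replicate 2. It was 2 with each position counted 1 time, 3 at positions unique over 50 bases and 2 with all protein-coding transcripts. The log2 ratio of TUBB4B for this comparison turned from 0.05 to -0.19 without replicate 3 (range -0.19 to 0.34 over the libraries left out), -0.60 with each position counted 1 time and -0.40 with 1 event added. With 0.1 events added it rose to 0.85. For the tails, the log2 ratio of TUBB4B became -0.13 without replicate 2 (range -0.13 to 1.10) and -1.01 with 0.1 events added, and that of TUBB -1.43 with 0.1 events added and -0.30 for the last 30 codons. The ratio of ACTG1, -0.08, became 0.09 without replicate 3 and 0.50 without replicate 4 (range -0.64 to 0.50), 0.63 with each position counted 1 time, 0.061 at positions unique over 30 bases, 0.48 with 1 event added and 0.53 with the 3′ UTR added to the reference. The number of genes above the share of positions near GANGA motifs in all libraries, 0, was 0 to 1 with a library left out (1 without replicate 4) and 1 each for motifs within 10 nt, within 50 nt and for GAAGA only. TUBB4B has no GAAGA and gave no value there. Its difference of 2.33 points turned to -7.40 without replicate 2 (range -7.40 to 6.88), -2.13 with each position counted 1 time, -0.97 within 10 nt and -1.23 within 50 nt, and that of ACTB, -6.12, to 2.99 within 50 nt. At a level of 100 events 3 of the 8 genes passed, and clusters called in single libraries numbered 0, 3, 0 and 0 against 11 on the summed libraries. Causes were not tested. TUBA1B went from place 3 to place 5 by copy-free density without replicate 3, an alternative chosen after seeing the data. The other 212 of 245 alternative values kept their direction, their level within 1 SD or their count within about 1.5 times, but could move in size: the tail ratio of ACTB, -1.51, was -3.80 with 0.1 events added and -0.13 with the window moved by 10 nt. No pairing of libraries between groups was possible because all libraries belong to 1 group, and the tests compared values within each library. Depth limits all of these: replicate 3 had 48 exonic events in the 8 genes.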
